A study of Mus musculus with 6 samples.

Results

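Myosin heavy chains are the motor subunits of muscle and cytoskeletal myosin, and 7 of their genes were followed in whole mouse hearts carrying floxed cyclin C alleles with or without a cardiac Cre: Myh6, Myh7, Myh7b, Myh9, Myh10, Myh11 and Myh14. They were chosen by gene symbol, as 7 of the 24314 usable rows of a table of FPKM (fragments scaled to transcript length and to the number of mapped fragments), and all 7 reached the mean of 1 FPKM that a gene needed to be tested. The knockout hearts came from 3 mice labelled cyclin C fl/fl with the aMHC cre transgene, called cKO here, in which Cre is expressed from the promoter of Myh6 (alpha-MHC), one of the 7 genes. The controls were 3 cyclin C fl/fl mice, called fl/fl, whose floxed alleles the cKO mice share and whose label names no Cre, so the effect of Cre and that of losing cyclin C cannot be told apart. All 6 mice were male, 6 weeks old and on the C57Bl6J background, and each library was made from the polyadenylated RNA of a heart.

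A myosin heavy chain joins a motor head that splits ATP and pulls on actin to a long tail that assembles into filaments. In the adult mouse ventricle Myh6, the fast alpha chain, is the main sarcomeric form, while Myh7, the slow beta chain, dominates before birth and is known to return in many forms of cardiac stress. The balance of Myh7 to Myh6 is therefore a widely used readout of the state of the heart. Myh11 belongs to smooth muscle, and Myh9, Myh10 and Myh14 encode the non-muscle myosins IIA, IIB and IIC, which work in the cortex and in the division of cells.

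The sarcomeric genes carry their own regulatory sequence, which is shown because the Cre of the cKO mice is driven from one of these promoters. Below are the 250 bases before a RefSeq start of Myh6 (chr14:54966608-54966857) and of Myh7 (chr14:54994627-54994876), both on the minus strand of GRCm38.p6. Capitals mark GGAATG, the reverse complement of the MCAT motif CATTCC that TEAD factors recognise, and, in Myh6, the reverse complement of AGGTNA and AGGNCA set 4 bases apart, a loose form of the paired site (DR4) that thyroid hormone receptors bind.
Myh6 promoter: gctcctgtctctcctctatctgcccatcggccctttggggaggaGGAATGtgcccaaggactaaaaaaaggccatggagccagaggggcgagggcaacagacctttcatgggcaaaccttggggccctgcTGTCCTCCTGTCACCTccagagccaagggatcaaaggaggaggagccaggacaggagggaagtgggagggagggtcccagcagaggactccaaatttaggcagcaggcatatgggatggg
Myh7 promoter: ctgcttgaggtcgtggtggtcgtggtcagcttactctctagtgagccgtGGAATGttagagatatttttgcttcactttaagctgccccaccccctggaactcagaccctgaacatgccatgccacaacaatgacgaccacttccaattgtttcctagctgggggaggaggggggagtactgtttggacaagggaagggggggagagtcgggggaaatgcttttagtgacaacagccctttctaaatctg
Myh7 has a further RefSeq start, whose window (chr14:54994550-54994799) overlaps the one shown and holds no MCAT match. In the windows shown, the MCAT letters, searched on both strands, lay at bases -206 to -201 in Myh6 and -201 to -196 in Myh7, and were found in 12.6% of 32851 windows of this length. The looser pair of sites lay at bases -120 to -105 in Myh6 and occurred in 0.177% of the windows, 58 in number. Thyroid hormone is known to raise Myh6 and lower Myh7 in rodent heart. A match is a stretch of letters and was not measured as a bound site.

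The 3 sarcomeric genes also hold microRNAs within their introns, which are known to act on the balance of the myosins. Their mature RefSeq sequences (GRCm38.p6) follow, with the seed, bases 2 to 8, in capitals.
mmu-miR-208a-3p (chr14:54949072-54949093, minus strand, inside Myh6): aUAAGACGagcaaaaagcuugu
mmu-miR-208b-3p (chr14:54975710-54975731, minus strand, inside Myh7): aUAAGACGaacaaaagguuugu
mmu-miR-499-5p (chr2:155622893-155622913, plus strand, inside Myh7b): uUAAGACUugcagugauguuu
The first pair share all 7 seed bases, and miR-499-5p shares 6 of the 7. The rows for Mir208a, Mir208b and Mir499 stood at 0.01 FPKM, the lowest value of the table, in all 6 libraries, so host gene levels below say nothing of the mature microRNAs.

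Before the members are described, the state of the libraries bears on them. FPKM summed to 589196 to 616158 in cKO and 627881 to 768960 in fl/fl libraries. Depth was estimated from the most common ratio between a library and fl/fl 1 among genes low in both. It was 1.01 to 1.09 times that of fl/fl 1 in cKO libraries and 0.883 to 1 times in fl/fl libraries. Ccnc, which encodes cyclin C, had 5.81, 5.70 and 4.53 FPKM in cKO and 8.48, 7.60 and 10.8 FPKM in fl/fl hearts, lower in every cKO library, with a log2 difference of -0.65 that did not pass the test across all genes (limma, adjusted p = 0.144). Clock genes separated replicate 3 of both genotypes from the others: Arntl had 0.582, 0.802 and 13.7 FPKM in cKO and 1.36, 0.526 and 8.84 FPKM in fl/fl hearts. Summed adipocyte markers reached 427 FPKM in fl/fl 1, against at most 13.1 in cKO and 18.6 in the other fl/fl libraries. In whole hearts, fewer cells of a type and less RNA per cell cannot be told apart.

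Of the 7 myosin heavy chains, 0 passed the test between cKO and fl/fl hearts at an adjusted p of 0.05 (limma on log2(FPKM + 1), Benjamini-Hochberg over all 12103 genes tested), where 0.587% of all tested genes did. At an unadjusted p under 0.05 there were 3, Myh6, Myh7 and Myh7b, all with lower means in cKO, beside 12.7% of all genes in either direction and 6.37% lower in cKO. In the authors' deposited table, 0 of the 7 had a q-value under 0.05, against 3.77% of its genes. Differences were negative for 4 members and positive for 3, with a median of -0.31 on the log2(FPKM + 1) scale, beside -0.0020 over all tested genes. Myh6 was the only member whose cKO and fl/fl libraries did not overlap; 10.3% of all tested genes were lower in every cKO library.

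**Figure D1:**
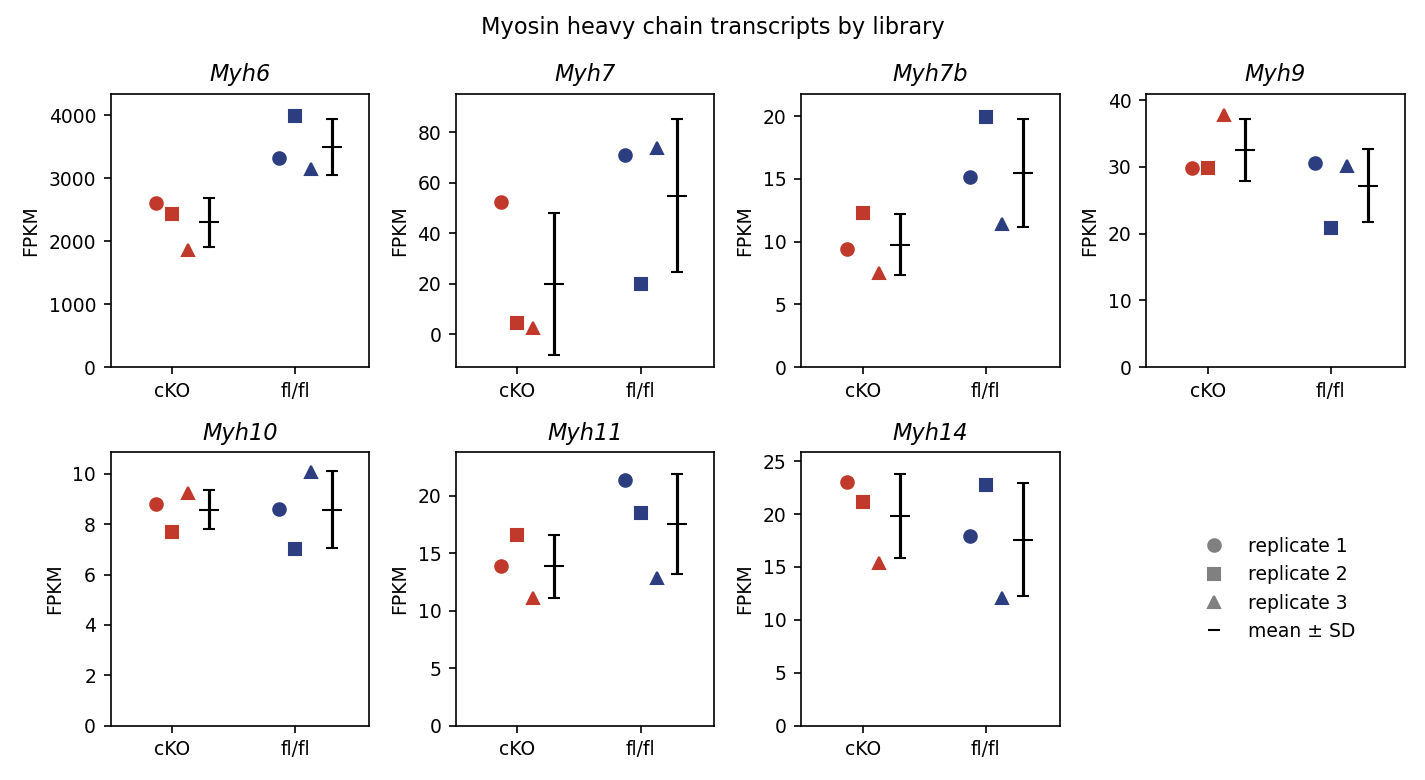
FPKM of each myosin heavy chain by library, with cKO on the left and fl/fl on the right of each panel, the marker giving the replicate number and the bar the mean ± SD of 3 libraries. Myh6 separates by genotype, at most 2615 FPKM in cKO and at least 3150.3 FPKM in fl/fl hearts, and the other 6 overlap.

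Myh6, the main motor of the adult mouse ventricle, was the most abundant heavy chain in every library. It had 2615, 2431 and 1866 FPKM in cKO hearts, against 3329, 3996 and 3150.3 FPKM in fl/fl hearts. Every cKO library lay below every fl/fl library, with means of 2304 ± 390 FPKM in cKO and 3491 ± 446 FPKM in fl/fl hearts (SD, n = 3 each), a ratio of 0.660. The log2 difference was -0.61 (SE 0.18), and it did not pass (limma, adjusted p = 0.238; 0.121 to 0.659 over the alternatives, the authors' q-value among them). Between replicates 1 and 2 alone the difference was -0.53 (limma, adjusted p = 0.616), and replicate 3 has 1 library per genotype.

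The sum of 11 genes listed as ventricular cardiomyocyte markers was also lower in every cKO library. The list includes Tnnt2, cardiac troponin T, and Actc1, cardiac actin, so it is not limited to genes of the ventricle. The 11 ventricular markers summed to 44667 to 49241 FPKM in cKO and 66504 to 90822 FPKM in fl/fl libraries. Their log2 differences were negative for 8 of 11 with a median of -0.59, and 2 passed the limma test, Mb (myoglobin; adjusted p = 0.0367) and Ryr2 (the calcium release channel; adjusted p = 0.00604; 7 of 11 at an unadjusted p under 0.05, and 5 by q-value in the authors' deposited table). The call for Mb was lost without cKO 1, cKO 2, cKO 3 or fl/fl 3 (adjusted p of 0.156 to 0.254). Of the 11, 7 were lower in every cKO library, while Actc1 was higher in every one, at a log2 difference of 0.29. Irx4, Hey2 and Kcnj2 overlapped between genotypes, at -0.03, 0.07 and 0.12. None of the 11 was at the lowest value of the table, and the part of these values in that of Myh6 was not tested.

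Set against single sarcomere genes, chosen after their values were seen, Myh6 took different places. Per 100 FPKM of Myl2, the ventricular regulatory light chain, Myh6 had 29.3, 23.7 and 21.2 FPKM in cKO and 20.7, 16.8 and 15.2 FPKM in fl/fl libraries, higher in every cKO library. Per 100 FPKM of Actc1, cardiac actin, it had 23.4, 23.3 and 16.7 FPKM in cKO and 40.1, 44.4 and 33.0 FPKM in fl/fl libraries, lower in every cKO library. Per 100 FPKM of Tnnt2, cardiac troponin T, the genotypes overlapped at 44.5 to 55.4 FPKM in cKO and 37.5 to 48.0 FPKM in fl/fl libraries. The direction for Myh6 thus turned with the gene it was divided by.

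Myh7, the slow beta chain, varied more within each genotype than nearly any other tested gene. It had 52.5, 4.64 and 2.54 FPKM in cKO hearts and 70.9, 19.8 and 74.0 FPKM in fl/fl hearts. The highest cKO library was 20.7 times the lowest, and the highest fl/fl library 3.73 times the lowest. On the log2 scale the SD among cKO libraries was 2.10, larger in 0.033% of tested genes, and among fl/fl libraries 1.05, larger in 0.752%. cKO 1 lay within the fl/fl range and the other two cKO hearts below it.

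Myh7 averaged 19.9 ± 28.3 FPKM in cKO and 54.9 ± 30.4 FPKM in fl/fl hearts (SD, n = 3 each). The log2 difference of -2.24 (SE 0.96) did not pass (limma, adjusted p = 0.389; 0.0961 to 0.751 over the alternatives). It depended on cKO 1: the difference was -3.43 without that library (limma, adjusted p = 0.0961) and -1.47 without cKO 3. Between replicates 1 and 2 alone it was -1.16 (limma, adjusted p = 0.751).

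Several atrial genes were likewise higher in cKO 1 than in the other cKO hearts. Myl7, the atrial regulatory light chain, had 323, 57.5 and 64.0 FPKM in cKO and 1116, 808 and 682 FPKM in fl/fl hearts. The 11 atrial markers summed to 4297, 1272 and 2403 FPKM in cKO 1, 2 and 3 and to 6461, 4385 and 3669 FPKM in fl/fl 1, 2 and 3. Nppa, which encodes atrial natriuretic peptide, made up 75.2% to 90.6% of that sum in cKO and 49.8% to 57.5% in fl/fl libraries, and its genotypes overlapped. Without Nppa, a choice made after the values were seen, the other 10 markers summed to 1067, 231 and 225 FPKM in cKO 1, 2 and 3 and to 2747, 1949 and 1842 FPKM in fl/fl 1, 2 and 3, lower in every cKO library. The log2 differences of the full list were negative for 10 of 11 with a median of -1.45, 9 were lower in every cKO library, and 2 passed, Bmp10 and Sbk2 (limma; 10 of 11 at an unadjusted p under 0.05, and 8 by q-value in the authors' deposited table). The call for Sbk2, a heart kinase, held without cKO 1 and was lost without any other single library (adjusted p of 0.103 to 0.169). Bmp10, an atrial growth factor, was listed at 0.01, 0.0757 and 0.429 FPKM in cKO and at 54.9, 27.0 and 21.6 FPKM in fl/fl hearts, lowest in the cKO library that had the most Myh7 (limma, adjusted p = 0.000629), and its call held with each library left out. How much atrium each heart kept at dissection is not recorded in the labels, and the part of the atrial genes in the Myh7 values was not tested.

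Divided by an atrial light chain, the genotypes overlapped. Per 100 FPKM of Myl4, Myh7 had 15.4, 7.72 and 4.16 FPKM in cKO and 8.98, 3.54 and 10.5 FPKM in fl/fl libraries. Per 100 FPKM of Myl7 it had 16.2, 8.07 and 3.96 FPKM in cKO and 6.36, 2.45 and 10.9 FPKM in fl/fl libraries. These ratios, chosen after the values were seen, were highest in cKO 1 and lowest in fl/fl 2.

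The ratio of Myh7 to Myh6 cancels any scaling of a whole library. Myh7 came to 2.01, 0.191 and 0.136 FPKM per 100 FPKM of Myh6 in cKO hearts and to 2.13, 0.496 and 2.35 in fl/fl hearts. cKO 1 stood beside fl/fl 1 and fl/fl 3, and the other two cKO hearts below all fl/fl hearts. The mean log2 ratio was -8.06 ± 2.12 in cKO and -6.21 ± 1.26 in fl/fl hearts (SD, n = 3 each), a difference of -1.86 (two-sided exact permutation test, p = 0.2). The smallest p that 3 against 3 can give is 0.1. That test could therefore not have passed at the threshold used for the genes, whatever the values, and no conclusion is drawn from it. The difference stayed negative in each of the 12 alternatives, between -0.73 with replicates 1 and 2 alone and -3.48 for the ratio of group medians. With replicates 1 and 2 alone the exact permutation p was 0.667, and fewer libraries make the smallest possible p higher than 0.1. No cKO heart had a ratio above the fl/fl maximum of 2.35.

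**Figure D2:**
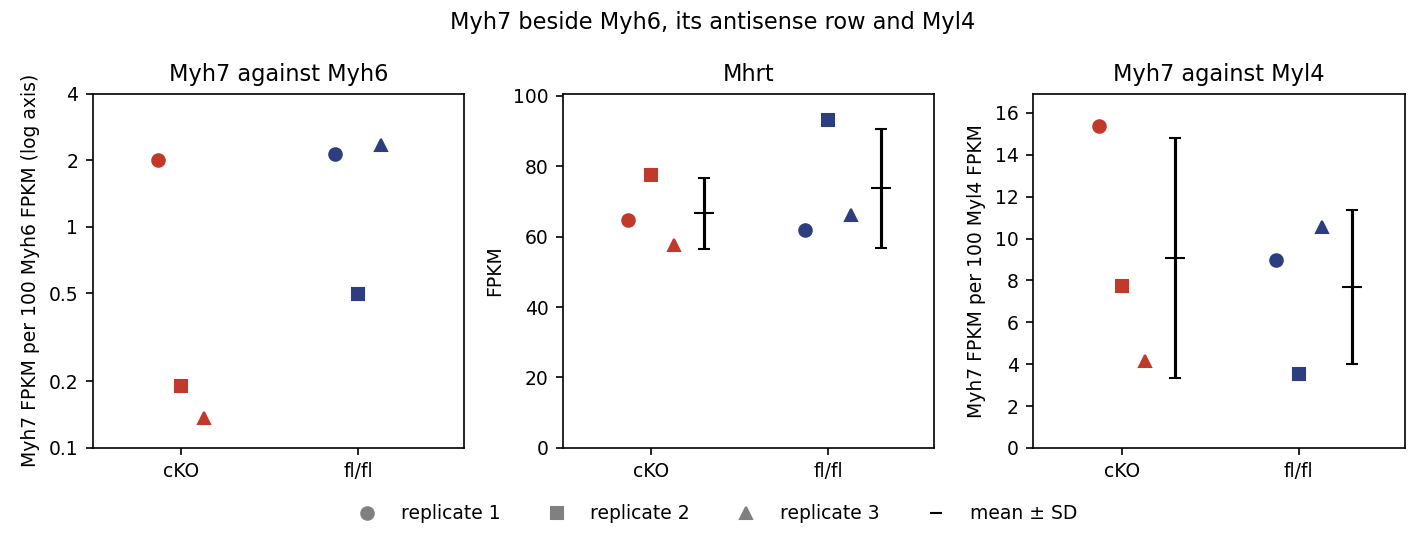
Myh7 FPKM per 100 FPKM of Myh6 (left, log axis, no mean drawn), FPKM of the antisense row Mhrt (middle) and Myh7 FPKM per 100 FPKM of Myl4 (right), by library, cKO left of fl/fl, with mean ± SD of 3 libraries in the middle and right panels. The ratio to Myh6 spans 0.136 to 2.01 in cKO and 0.496 to 2.35 in fl/fl hearts, while Mhrt lies between 57.7 and 93.2 FPKM throughout.

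Both values share the sequence of their neighbour, since Myh6 (chr14:54941921-54968017) and Myh7 (chr14:54970684-54994626) lie side by side as related copies on the minus strand in RefSeq GRCm38.p6. Of the 50-base windows of the longest annotated protein-coding transcript, 22.6% of those of Myh6 also occur in Myh7, and 22.2% of those of Myh7 in Myh6. Neither the read length nor the handling of reads that match both genes is recorded in the labels, so the lowest Myh7 values are uncertain beside a Myh6 level that is 523 and 735 times as high in cKO 2 and cKO 3. In those libraries, misplaced Myh6 reads could make up at most the 0.191 and 0.136 FPKM per 100 that were listed for Myh7.

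Mhrt, a long noncoding RNA transcribed antisense to Myh7 in the heart, varied far less than Myh7. Mhrt had 64.7, 77.5 and 57.7 FPKM in cKO and 61.9, 93.2 and 66.2 FPKM in fl/fl hearts, and the genotypes overlapped (log2 difference -0.13, limma, adjusted p = 0.784). Myh7 per unit of Mhrt was 0.812, 0.0599 and 0.0440 in cKO and 1.15, 0.213 and 1.12 in fl/fl hearts. The kit named by the labels does not mark strand although the design text calls the libraries stranded, so reads of the antisense pair cannot be told apart with certainty.

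Myh7b, an older sarcomeric relative known for hosting miR-499, was low in all hearts. It had 9.45, 12.3 and 7.49 FPKM in cKO and 15.1, 19.9 and 11.4 FPKM in fl/fl hearts, and cKO 2 lay above fl/fl 3. Means were 9.75 ± 2.43 FPKM in cKO and 15.5 ± 4.29 FPKM in fl/fl hearts (SD, n = 3 each), with a log2 difference of -0.61 (SE 0.22) that did not pass (limma, adjusted p = 0.319). Per 100 FPKM of Myh6 it ran from 0.361 to 0.507 FPKM in cKO and from 0.361 to 0.499 FPKM in fl/fl hearts, and the genotypes overlapped on this scale too. The table gives Myh7b a position shared with Trpc4ap, a calcium channel associated gene, which had 39.3 to 44.9 FPKM in cKO and 43.3 to 48.7 FPKM in fl/fl hearts.

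Myh11, the heavy chain of smooth muscle, had 13.9, 16.6 and 11.1 FPKM in cKO and 21.4, 18.5 and 12.8 FPKM in fl/fl hearts. The genotypes overlapped, with means of 13.9 ± 2.73 FPKM in cKO and 17.6 ± 4.35 FPKM in fl/fl hearts (SD, n = 3 each) and a log2 difference of -0.31 (SE 0.20; limma, adjusted p = 0.543). Acta2, the actin of smooth muscle that immature and stressed cardiomyocytes also use, rose: it had 554, 474 and 617 FPKM in cKO and 102, 85.2 and 101 FPKM in fl/fl hearts (limma, log2 difference 2.50, SE 0.13, adjusted p = 0.000212), a call that held with each library left out. No other gene among the 10 smooth muscle markers passed. Of these, Tagln, an actin binding protein, had 42.7, 60.2 and 36.4 FPKM in cKO and 82.6, 81.9 and 59.1 FPKM in fl/fl hearts. Myl9, a light chain of smooth and non-muscle myosin outside that list, was higher in every cKO library and passed (limma, adjusted p = 0.0335). Its call, described below, was lost without some single libraries. The 10 smooth muscle markers had 5 positive and 5 negative differences and a median of -0.09, and 1 of 10 passed (limma; 3 at an unadjusted p under 0.05, and 2 by q-value in the authors' deposited table). Myh11 per unit of Acta2 was 0.0180 to 0.0349 in cKO and 0.128 to 0.217 in fl/fl hearts, lower in every cKO library. This separation follows from the rise of the divisor Acta2 and is no result about Myh11, whose own values overlapped. The share of smooth muscle cells was not measured.

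None of the 3 non-muscle heavy chains passed (limma; 0 at an unadjusted p under 0.05). Myh9, myosin IIA, had 29.8, 29.8 and 37.8 FPKM in cKO and 30.5, 20.9 and 30.2 FPKM in fl/fl hearts. The cKO values began below the highest fl/fl value, and the log2 difference of 0.26 (SE 0.17) did not pass (limma, adjusted p = 0.541). Myh10, myosin IIB, had 8.81, 7.70 and 9.24 FPKM in cKO and 8.61, 7.03 and 10.1 FPKM in fl/fl hearts. Its means of 8.58 ± 0.794 FPKM in cKO and 8.57 ± 1.52 FPKM in fl/fl hearts (SD, n = 3 each) differed by 0.01 on the log2 scale (SE 0.14; limma, adjusted p = 0.979), and the sign turned under quantile normalization, median scaling and array weights.

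Myh14, myosin IIC, had 23.0, 21.2 and 15.4 FPKM in cKO and 18.0, 22.7 and 12.0 FPKM in fl/fl hearts. In each genotype replicate 3 was the lowest, and the log2 difference of 0.19 (SE 0.23; limma, adjusted p = 0.765) turned to -0.04 without fl/fl 3. The 3 non-muscle chains together came to 61.6, 58.7 and 62.4 FPKM in cKO and 57.1, 50.7 and 52.3 FPKM in fl/fl hearts. Their sum, which was not tested, was higher in every cKO library although each gene overlapped on its own. The share of all genes higher in every cKO library was not counted, so this separation has no background to be read against.

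Markers of endothelial cells, fibroblasts, leukocytes and platelets were set beside that sum. Which cells carried the non-muscle chains was not measured. The 8 endothelial markers had positive differences in 8 of 8, with a median of 0.31, and summed to 473 to 610 FPKM in cKO and 390 to 421 FPKM in fl/fl hearts. The 8 fibroblast markers were also positive in 8 of 8, with a median of 0.25, and summed to 1122 to 1298 FPKM in cKO and 952 to 1098 FPKM in fl/fl hearts. The leukocyte and platelet markers had 1 positive and 7 negative differences among the 8 tested of 9 listed, with a median of -0.15, and summed to 188 to 206 FPKM in cKO and 204 to 236 FPKM in fl/fl hearts. In these 3 lists 0 markers passed (limma), where 5 endothelial, 3 fibroblast and 0 leukocyte or platelet markers had an unadjusted p under 0.05, and 2, 0 and 2 a q-value under 0.05 in the authors' deposited table. Their part in the non-muscle sum was not tested.

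**Figure D3:**
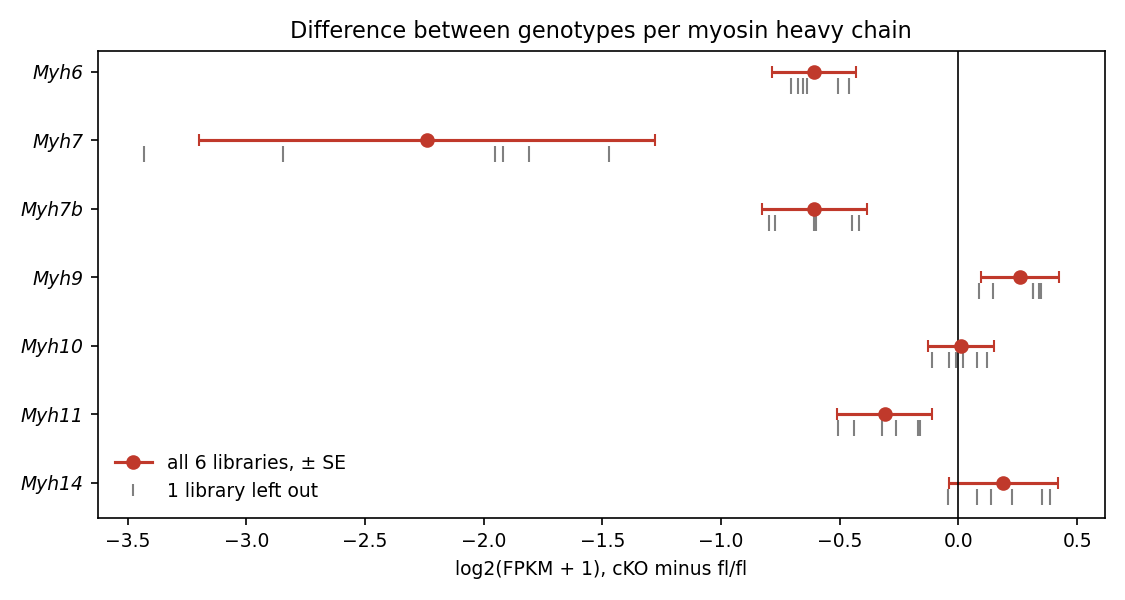
Difference of cKO minus fl/fl on the log2(FPKM + 1) scale for each myosin heavy chain: points and bars give the value from 6 libraries ± SE, and grey ticks the 6 values with 1 library left out. Myh7 has the widest range of ticks, from -3.43 to -1.47, and those of Myh10 fall on both sides of 0.

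FPKM is per length, so levels can be ordered between genes. In cKO hearts the means ran Myh6, Myh9, Myh7, Myh14, Myh11, Myh7b, Myh10, and in fl/fl hearts Myh6, Myh7, Myh9, Myh14, Myh11, Myh7b, Myh10. The place of Myh7 in cKO rests on cKO 1, at 52.5 FPKM. In cKO 2 and cKO 3 it was the lowest member, at 4.64 and 2.54 FPKM, below Myh10 at 7.70 and 9.24 FPKM. Only Myh6 stood above its next neighbour in every cKO library, whereas in fl/fl hearts this held for Myh6 and for Myh7b above Myh10. Summed over the 7 genes, the libraries had 2752, 2523 and 1949 FPKM in cKO and 3493, 4105 and 3301 FPKM in fl/fl hearts, lower in every cKO library. Myh6 supplied 95.0% to 96.3% of that sum in cKO and 95.3% to 97.3% in fl/fl hearts, and the genotypes overlapped.

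Skeletal and developmental heavy chains were not detectable in quantity. Myh1, Myh2, Myh3, Myh4, Myh8, Myh13 and Myh15 each stayed under 0.5 FPKM in all libraries, and their sums were 0.0896 to 0.157 FPKM in cKO and 0.0763 to 0.162 FPKM in fl/fl hearts. Myh13, of the eye muscles, was listed at 0.01 FPKM everywhere. The 8 skeletal muscle markers summed to 4.44 to 8.84 FPKM in cKO and 6.66 to 11.3 FPKM in fl/fl hearts.

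The genes whose profiles lay nearest to Myh7 over the 6 libraries were Myl4, Sln and Mybphl, all atrial genes. Other Myh genes, small RNA rows and rows with predicted or accession-like names were left out of this search. The measure was the root mean square difference between log2(FPKM + 1) values centred on the mean of the 6 libraries, and it came to 0.664, 0.703 and 0.799. Sln, which encodes the calcium pump inhibitor sarcolipin, had 268, 34.2 and 33.6 FPKM in cKO and 529.6, 347 and 271 FPKM in fl/fl hearts. Myl4, the atrial essential light chain, had 342, 60.1 and 60.9 FPKM in cKO and 790.1, 561 and 702 FPKM in fl/fl hearts. All 3 parted from Myh7 in fl/fl 2, where Myh7 lay below its mean of the 6 libraries and they lay above theirs. They also lay lower than Myh7 on the centred scale in cKO 1 and fl/fl 3. In cKO 1 Myh7 was at 1.27, and Myl4, Sln and Mybphl at 0.33, 0.75 and 0.24. In fl/fl 3 Myh7 was at 1.76, and these genes at 1.37, 0.77 and 0.82. The nearest to Myh6 were Aarsd1, Csrp2 and Me3, at 0.0550, 0.0734 and 0.0749. Csrp2, a muscle LIM protein, had 41.4, 37.2 and 31.6 FPKM in cKO and 55.9, 62.0 and 55.5 FPKM in fl/fl hearts.

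**Figure D4:**
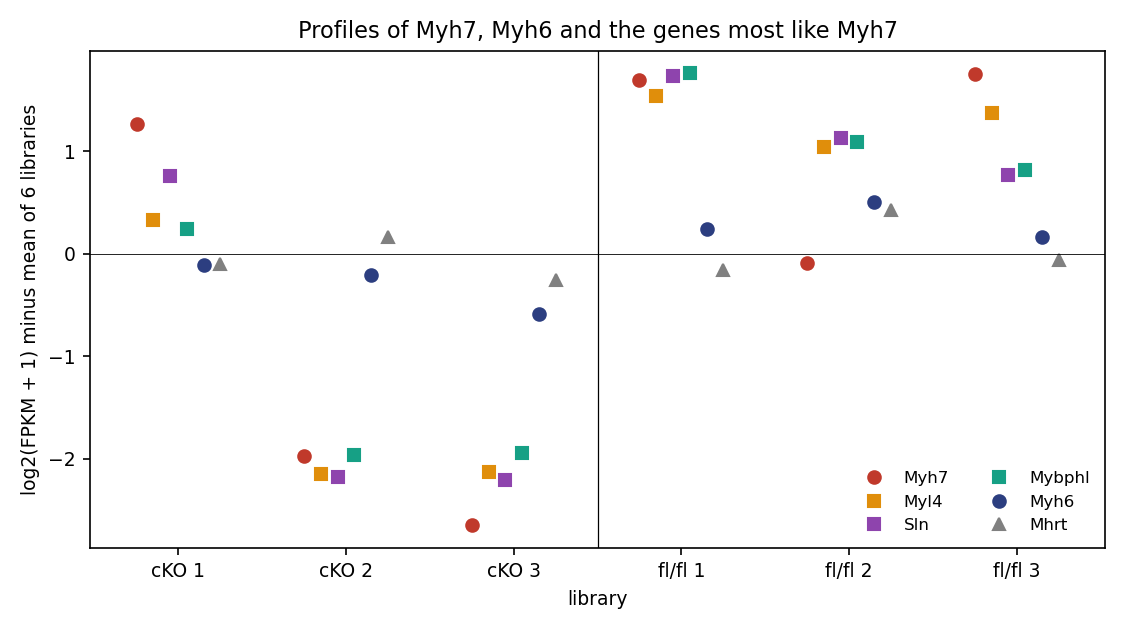
Centred log2(FPKM + 1) of Myh7, the 3 genes with profiles nearest to it, Myh6 and Mhrt, one column of points per library, cKO left of fl/fl, with markers offset sideways to be seen. Myh7 and the atrial genes fall far below 0 in cKO 2 and cKO 3, and in fl/fl 2 Myh7 lies apart from the others.

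The heavy chain works with light chains, 2 of which passed. Myl1, the essential light chain of fast and embryonic muscle, rose: it had 455, 475 and 455 FPKM in cKO and 153, 102 and 131 FPKM in fl/fl hearts (limma, log2 difference 1.86, SE 0.15, adjusted p = 0.00227), a call that held with each library left out. The other 5 sarcomeric light chains tested had negative differences, with a median over the 6 of -0.84 and 0 called lower (limma; all 6 of the list had an unadjusted p under 0.05, and 4 a q-value under 0.05 in the authors' deposited table). Myl2 had 8911, 10238 and 8813 FPKM in cKO and 16100.1, 23769.7 and 20749 FPKM in fl/fl hearts, lower in every cKO library (limma, adjusted p = 0.0873).

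Myl9, the regulatory light chain of smooth and non-muscle myosin, rose to 211, 192 and 243 FPKM in cKO hearts, against 111, 105 and 75.8 FPKM in fl/fl hearts (limma, log2 difference 1.15, SE 0.16, adjusted p = 0.0335). That call was lost without cKO 1, cKO 2, cKO 3 or fl/fl 2 (adjusted p = 0.120, 0.113, 0.104 and 0.0778). It was 1 of 5 tested of 6 non-sarcomeric light chains, whose median difference was 0.10, and Myl12a, another of them, had a difference of -0.40 (limma, adjusted p = 0.164). Myl10 was listed at 0.01 FPKM everywhere.

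Proteins that bind or build the thick filament gave 0 calls among the 11 tested of 13 listed, with 3 positive and 8 negative differences and a median of -0.14 (limma; 3 at an unadjusted p under 0.05, and 3 by q-value in the authors' deposited table). The smallest p-values belonged to Mybpc2, fast myosin binding protein C, with 4.11, 3.43 and 5.39 FPKM in cKO and 8.37, 8.31 and 8.99 FPKM in fl/fl hearts (limma, adjusted p = 0.0549), and to Mybphl, an atrial relative, with 24.3, 4.48 and 4.53 FPKM in cKO and 71.4, 44.4 and 36.6 FPKM in fl/fl hearts (limma, adjusted p = 0.143). Of the 8 genes for myosin folding and assembly 0 passed, with 2 positive and 6 negative differences and a median of -0.12 (limma; 0 at an unadjusted p under 0.05, and 0 by q-value in the authors' deposited table). Naca, whose muscle form is a chaperone, and Stip1, an Hsp90 partner, were the nearest at differences of 0.21 and -0.14 (limma, adjusted p = 0.431 and 0.579).

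Kinases and phosphatases of myosin gave 0 calls among 13 tested of 15 listed, with 9 positive and 4 negative differences and a median of 0.02 (limma; 4 at an unadjusted p under 0.05, and 1 by q-value in the authors' deposited table). Mylk4, a kinase of the myosin light chain family, had 47.4, 53.1 and 35.6 FPKM in cKO and 81.0, 74.9 and 53.2 FPKM in fl/fl hearts (limma, adjusted p = 0.271), and Cdc42bpb, a cytoskeletal kinase, a difference of 0.32 (limma, adjusted p = 0.252). Among 19 tested of 21 known regulators of Myh6 and Myh7 transcription, 0 passed, with 12 positive and 7 negative differences and a median of 0.06 (limma; 4 at an unadjusted p under 0.05, and 0 by q-value in the authors' deposited table). Tead4, a factor that binds the MCAT letters shown above, had 1.79, 1.95 and 1.84 FPKM in cKO and 1.46, 0.760 and 0.972 FPKM in fl/fl hearts (limma, adjusted p = 0.315). Tead1, another TEAD factor of the list, was more abundant. It had 31.5, 31.8 and 34.4 FPKM in cKO and 28.9, 26.7 and 31.1 FPKM in fl/fl hearts (limma, log2 difference 0.17, adjusted p = 0.485).

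**Figure D5:**
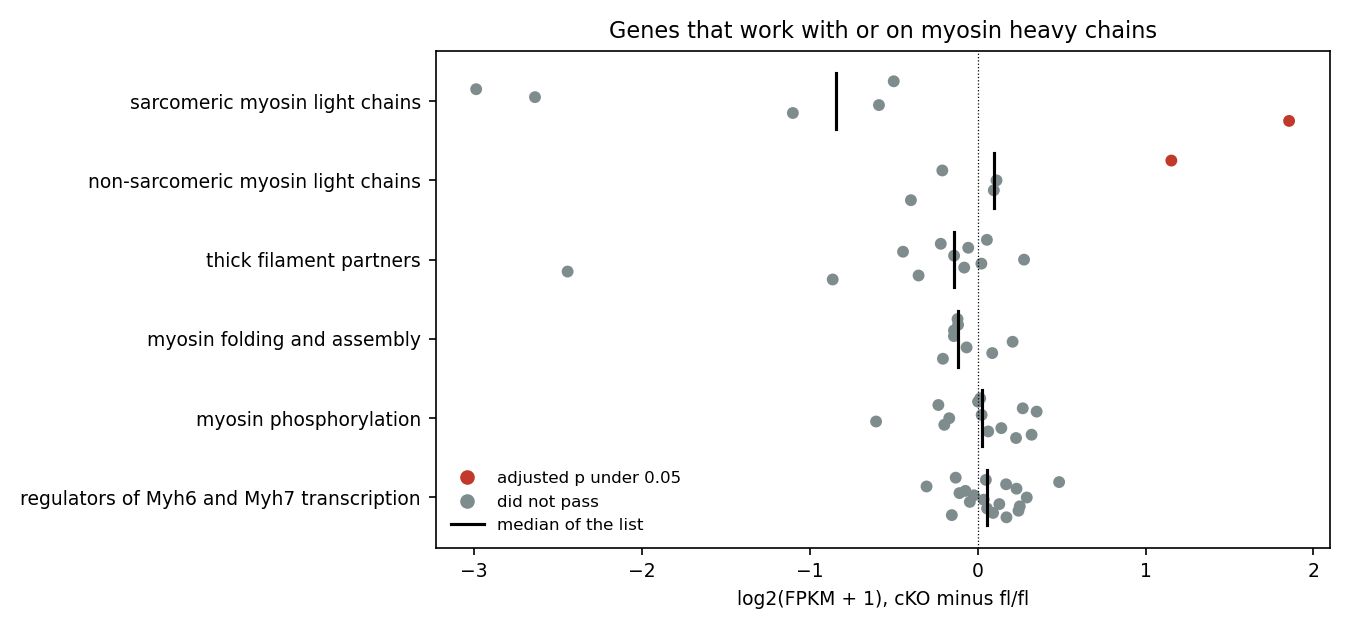
Difference of cKO minus fl/fl on the log2(FPKM + 1) scale for each tested gene of 6 lists of genes that work with or on myosin heavy chains, with the median of each list as a black line and red for adjusted p under 0.05. Myl1 and Myl9, the red points at 1.86 and 1.15, are the only calls, and the points far to the left include Myl7, Myl4 and Mybphl.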

How the data were processed

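RNA of 6 mouse hearts, 3 cKO and 3 fl/fl, was sequenced from libraries made with a TruSeq RNA v2 kit, per the labels' protocols. Per the submitters' processing notes, reads were processed with TopHat (version 1.0.0), Cufflinks and Cuffdiff, and the build named is mm10. The authors deposited FPKM per gene and library, and a table of q-values with p-values per gene and a group FPKM per genotype. Only 1 of the 7 members' positions in the files overlaps the RefSeq GRCm38.p6 gene, so the build of those positions is unsettled and coordinates printed here are RefSeq's. Values have a minimum of 0.01 and read numbers were not used here. Depth was therefore judged only from ratios of low values to those of fl/fl 1. 1 row with a failed value was left out.

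log2(FPKM + 1) of 12103 genes with a mean of at least 1 FPKM was fitted with limma (version 3.58.1, R 4.3.3) with an intensity trend, cKO minus fl/fl, and p-values were adjusted by Benjamini-Hochberg; the pseudocount understates the changes of low genes. The fit was tested on simulated data. The log2 ratio of Myh7 to Myh6 was compared by an exact permutation test (SciPy 1.17.1). Samples were grouped by their titles; each is a heart of its own. Named were all 7 members, and from each partner list the called genes and the 2 with the smallest p. Also named were the 3 genes with profiles nearest to Myh6 and Myh7. Other Myh genes, small RNAs and predicted or accession-like names were left out of that search. Of the genes this rule names, 1 is not reported here. The members and lists were chosen with earlier results of these data known. Alternatives varied the pseudocount, filter, scaling, trend, weights, replicate terms, the test used and each library left out.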

Additional observations from a re-analysis of the deposited data

How the results depend on the processing

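The direction and the side of the threshold were kept in all 18 alternatives for Myh6, Myh7, Myh9 and Myh11 and in 17 of 18 for Myh7b; Myh6 ranged down to -0.39 under quantile normalization. Myh10 reversed to -0.018 under quantile normalization, -0.0033 under median scaling and -0.062 with array weights, and ran from -0.11 to 0.12 with 1 library left out. Myh14 ran from -0.045 to 0.39 with 1 library left out. The number of all genes called, 71, was 14 with no filter on low values, 38 with no intensity trend, 123 with a term for replicate 3, 13 with replicates 1 and 2 alone and 474 by the authors' deposited q-values. With 1 library left out it ran from 13 to 50: 33, 13 and 26 without cKO 1, 2 and 3, and 50, 18 and 33 without fl/fl 1, 2 and 3. The count of myosin heavy chains called stayed at 0 in those fits. A fit with the replicate number as a block called 213 genes and 1 heavy chain, Myh7b (limma, log2 difference -0.61, adjusted p = 0.0218). Same-numbered cKO and fl/fl libraries deviated together with correlations of 0.0890, 0.271 and 0.429. Of all libraries, only cKO 1 did not correlate best with its own number, but with fl/fl 2 (0.152). Both replicate 3 libraries also differed from the others in clock genes. The titles give a number and name no pairing, so the main fit did not pair the samples. Whether they are paired was not settled. The cause of these shifts was not tested. With 3 libraries per genotype, a spread as wide as that of Myh7 limits what can pass.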
